A study of Mus musculus with 53 samples.

Results

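In double-positive (DP) cells, which express SOX2 and GATA6 together, 264 of the 984 genomic regions bound by both factors had no SOX2 peak in any of 7 SOX2 libraries of pluripotent cells. These regions are called new-SOX2 regions here, and the other 720 prior-SOX2 regions. The members were chosen by their DP SOX2, DP GATA6 and pluripotent SOX2 peaks, so those peaks are described below without a test. Peaks of the 3 DP SOX2 libraries were merged where they shared at least 1 bp, and regions with peaks of at least 2 libraries were kept (3588). The same steps gave 3484 DP GATA6 regions, and overlapping regions of both factors were merged into the co-bound regions.

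SOX2 is a transcription factor of the HMG box family that maintains pluripotency in the epiblast and in embryonic stem cells, where it binds DNA together with OCT4. GATA6 is a zinc finger factor that binds GATA sequences and is needed to form the primitive endoderm (PrE), the lineage of the early embryo that gives rise to the extra-embryonic yolk sac endoderm. H3K4me1 is found at enhancers, both poised and active, and H3K27ac at active enhancers and promoters.

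All cells were SGGC mouse embryonic stem cells, a line with a SOX2-GFP and a GATA6-mCherry reporter, profiled by CUT&RUN, in which an antibody directs a nuclease to the DNA that its target occupies. Pluripotent cells were clones B9 and B12 in 2iLIF or NACL medium and sorted SOX2+ cells of clone B12 from KOSR medium, nEnd is naive extra-embryonic endoderm of the same clones, an in vitro model of PrE, and DP cells were sorted from KOSR medium from clone B12 only. SOX2 was profiled in 2 libraries each of 2iLIF and NACL, 3 of SOX2+ and 3 of DP cells, and GATA6 in 3 libraries of DP cells and 2 of nEnd. The KOSR libraries come from experiments named A, A1 and B, and no source used here says whether A1 was a culture separate from A, so the spread between them may be technical. Each histone mark has 2 libraries in 2iLIF, NACL, SOX2+ and nEnd cells but 1 in DP cells, and both nEnd H3K4me1 libraries are of clone B9. The peak lists held 1378 to 32510 peaks for the factors and 13514 to 401853 for the histone marks. Read depth is unknown, and intervals given below (95%, Clopper-Pearson) cover counting error over regions only.

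The labels were checked by H3K27ac within 1 kb of marker start sites. Of 7 pluripotency genes, 6 or 7 had a peak in every 2iLIF, NACL, SOX2+ and DP library, and 3 and 4 in the nEnd libraries, which both lacked one at Sox2, Nanog and Esrrb. Of 8 PrE genes, 7 and 8 had a peak in the nEnd libraries and 0 and 1 in the SOX2+ libraries. The NACL libraries had a peak at 6 and 8 of these PrE genes and at all 4 trophoblast genes examined. The DP library had peaks at all 7 pluripotency genes and at 3 PrE genes, Pdgfra, Dab2 and Cubn, while the 2iLIF libraries had peaks at 3 and 4 of the PrE genes.

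The GRCm38 reference sequence of the first 5 members, ordered by the number of DP libraries with a peak and then by peak strength, is given here to show the GATA and SOX strings that are counted further on. Each window has 200 bases of the plus strand centred between the SOX2 and GATA6 maxima, and capitals mark the GATA strings AGATAA and TGATAA and the SOX strings CATTGT and CTTTGT on either strand.
Aco1 (chr4:40120960-40121159): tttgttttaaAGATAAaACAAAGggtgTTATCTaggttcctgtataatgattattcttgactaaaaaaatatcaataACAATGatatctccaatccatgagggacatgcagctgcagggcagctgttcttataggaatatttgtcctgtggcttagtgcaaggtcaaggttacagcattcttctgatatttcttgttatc
Gm10160 (chr7:81846313-81846512): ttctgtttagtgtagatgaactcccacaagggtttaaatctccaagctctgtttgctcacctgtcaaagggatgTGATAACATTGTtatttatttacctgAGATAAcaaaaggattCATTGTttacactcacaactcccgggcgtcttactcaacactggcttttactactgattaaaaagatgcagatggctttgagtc
Galnt17 (chr5:131027185-131027384): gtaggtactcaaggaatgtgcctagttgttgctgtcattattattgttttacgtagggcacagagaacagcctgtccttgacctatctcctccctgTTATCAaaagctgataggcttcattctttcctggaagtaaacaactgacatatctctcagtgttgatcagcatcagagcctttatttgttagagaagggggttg
Efna5 (chr17:62713439-62713638): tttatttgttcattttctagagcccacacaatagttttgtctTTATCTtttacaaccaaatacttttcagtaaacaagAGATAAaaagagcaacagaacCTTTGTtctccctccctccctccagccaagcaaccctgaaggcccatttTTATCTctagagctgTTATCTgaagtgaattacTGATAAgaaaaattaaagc
Exosc7 (chr9:123120395-123120594): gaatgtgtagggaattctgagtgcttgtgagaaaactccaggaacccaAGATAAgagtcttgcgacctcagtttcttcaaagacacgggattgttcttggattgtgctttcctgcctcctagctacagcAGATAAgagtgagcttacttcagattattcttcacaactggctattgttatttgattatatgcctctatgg
The windows hold 1 to 5 GATA strings each. Those near Aco1 and Gm10160 hold 2 GATA and 2 SOX strings, that near Efna5 holds 5 GATA strings and 1 SOX string, and those near Galnt17 and Exosc7 hold no SOX string of this form.

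The members rested on experiments A and A1. All 264 members had a DP SOX2 peak in A and 263 in A1, but 8 (3.03%) in B, which had 1378 SOX2 peaks against 4859 and 5320. Among prior-SOX2 regions 281 (39.0%) had a SOX2 peak in B. GATA6 was less dependent on the experiment: 264, 263 and 172 members had a DP GATA6 peak in A, A1 and B. Requiring SOX2 peaks in both remaining libraries left 7 members without the A library, 8 without the A1 library and 263 without B. With 1 GATA6 library left out, 171 members remained without A and 172 without A1. Only 6 members had peaks of both factors in all 3 libraries.

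By strength, the members had weaker SOX2 peaks and stronger GATA6 peaks in DP cells than the prior-SOX2 regions. Each peak was ranked by its maximum signal within its own library, since signal is on a different scale in each. The median SOX2 percentile of the members was 42.2 in A and 49.5 in A1, compared with 72.5 and 77.7 at prior-SOX2 regions. Their median GATA6 percentile was 90.6, 82.5 and 68.6 in A, A1 and B, compared with 77.9, 59.1 and 50.4. These values come from the libraries that chose the members and were not tested. The maxima of both factors nearly coincided, with a median distance of 38 bp at the members and 42 bp at prior-SOX2 regions, and 229 members (86.7%) had them within 100 bp. The members had a median width of 485 bp.

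**Figure D1:**
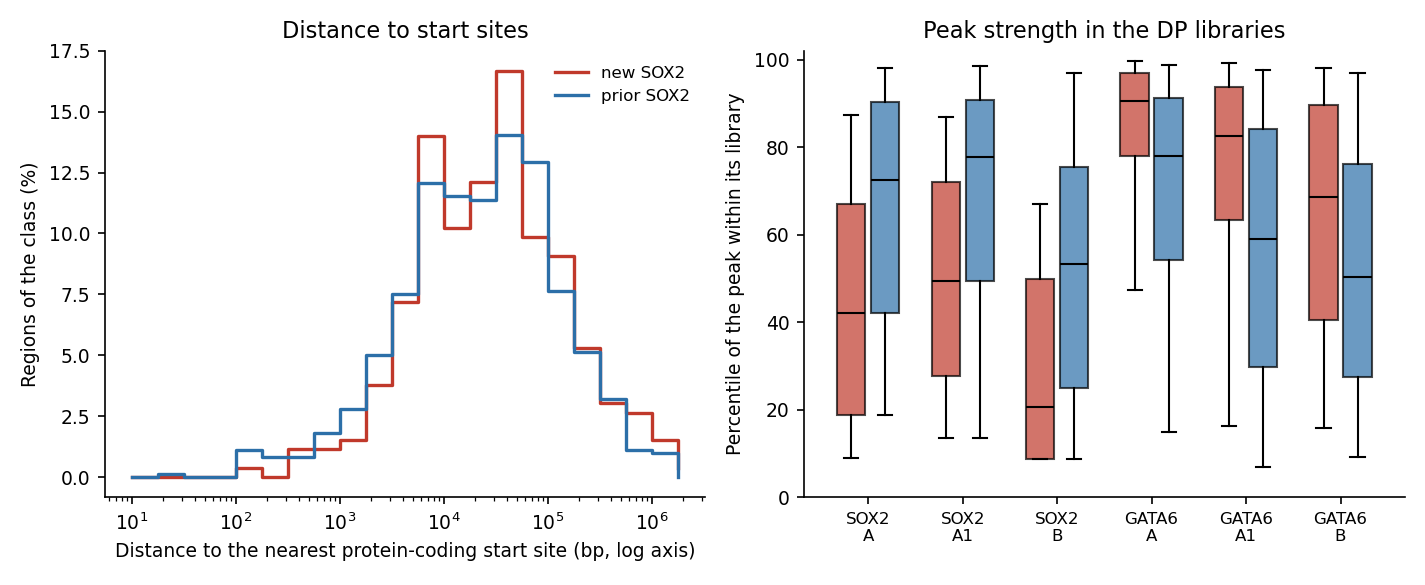
Left, distance from the co-bound region to the nearest protein-coding start site in bp on a log axis, as the percent of the 264 new-SOX2 (red) or 720 prior-SOX2 (blue) regions. Right, percentile of the peak within its own DP library; boxes show quartiles and median, whiskers the 5th and 95th percentiles, and only regions with a peak in that library enter. The distance distributions lie over each other, while the red SOX2 boxes sit lower and the red GATA6 boxes higher than the blue.

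Of the co-bound regions, 26.8% were without a pluripotent SOX2 peak, which is the share the rule itself set, and of the 2604 DP SOX2 regions outside the co-bound regions 60 were (interval 1.76 to 2.96%). How sharply the members stood apart depended on the library: 365 co-bound regions lacked a SOX2 peak of the SOX2+ library of A1, the fewest, and 622 one of 2iLIF clone B12, the most. The number of pluripotent SOX2 libraries with a peak had its 2 highest counts at the ends, with 264 regions at 0 and 316 at all 7, and 62 to 74 regions at each number between. Just outside the rule lay 74 regions with a SOX2 peak in 1 library, which was the SOX2+ library of A1 for 23 and of A for 15, NACL B9 for 19 and NACL B12 for 12 of them. Just inside lay 17 members with a pluripotent SOX2 peak within 1 kb, the closest at 63 bp. At these 17, H3K4me1 lay at 58.8% in both SOX2+ libraries and GATA6 at 100% in both nEnd libraries. The median gap from a member to the nearest such peak was 16088 bp.

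**Figure D2:**
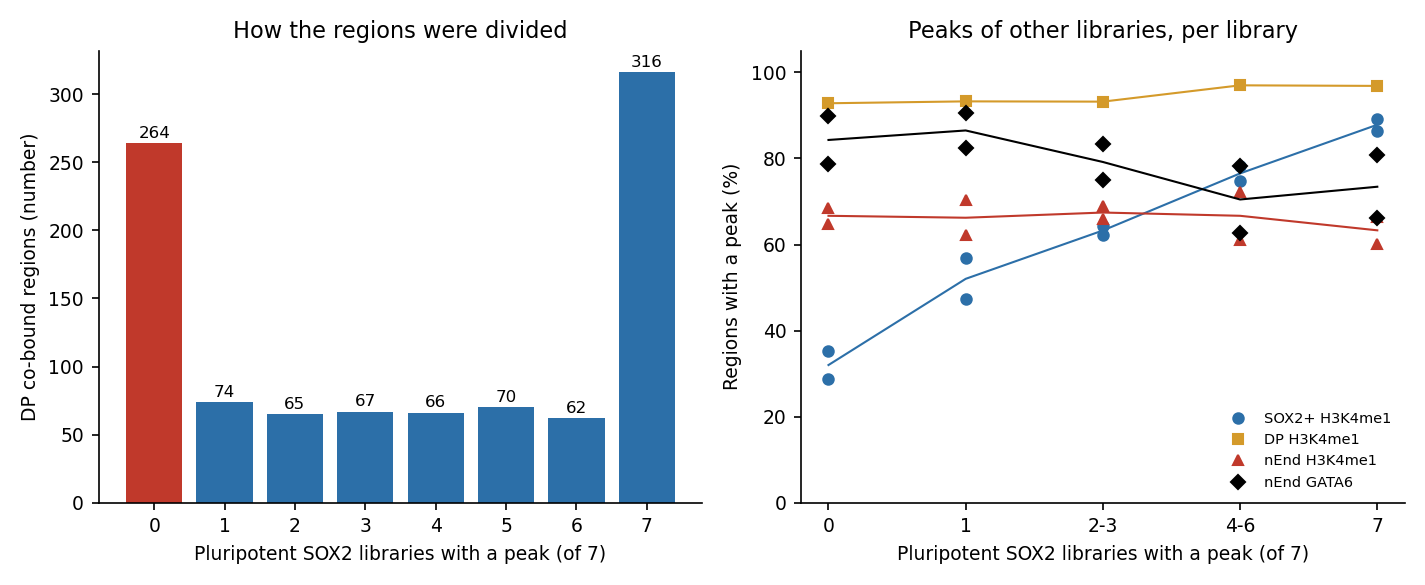
Left, number of DP co-bound regions by how many of 7 pluripotent SOX2 libraries had a peak in them, with the new-SOX2 regions in red. Right, percent of these regions with an H3K4me1 or GATA6 peak; points are libraries and lines join their means. SOX2+ H3K4me1 climbs from 28.8% and 35.2% of regions at 0 to 86.4% and 89.2% at 7, and nEnd H3K4me1 stays between 60.1% and 72.2%.

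GATA strings were dense at the members. In the 300 bp around the DP GATA6 maximum, 261 of 264 members (98.9%, interval 96.7 to 99.8%) held AGATAA or TGATAA on either strand, with a mean of 2.38 matches, and 202 (76.5%) held at least 2. Of prior-SOX2 regions 85.3% (82.5 to 87.8%) held one, with a mean of 1.44 matches, and of the 2497 DP GATA6 regions outside co-bound regions 94.4% (93.5 to 95.3%), with a mean of 2.06. Of 32851 promoters of the same length in the RefSeq table (GRCm38.p6) 18.6% held one. The members were chosen by DP GATA6 peaks and held stronger ones than prior-SOX2 regions, as given above, and the part of this in the shares was not tested. Around the SOX2 maximum of the members the share was 97.0%, compared with 33.4% at DP SOX2 regions outside co-bound regions.

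SOX strings were about as frequent at the members as at prior-SOX2 regions, and less frequent than at DP SOX2 regions outside co-bound regions. CATTGT or CTTTGT lay within the 300 bp around the DP SOX2 maximum in 190 members (72.0%, interval 66.1 to 77.3%), in 69.6% (66.1 to 72.9%) of prior-SOX2 regions and in 77.8% (76.2 to 79.4%) of DP SOX2 regions outside co-bound regions. Around the GATA6 maximum the share was 70.8% (64.9 to 76.2%) at the members, 68.1% at prior-SOX2 regions and 47.2% (45.2 to 49.2%) at DP GATA6 regions outside co-bound regions, and 28.6% of promoters held one. Both kinds of string lay in the window around the SOX2 maximum in 184 members (69.7%), 55.8% of prior-SOX2 regions and 678 of the 2604 DP SOX2 regions outside co-bound regions. In 2 members, 47 prior-SOX2 regions and 386 of the 2604 the window held neither. The joint SOX and OCT string TTGTNATGC, whose first bases can be part of a SOX string, differed. It lay in 4 members (1.52%, 0.414 to 3.83%), in 5.14% (3.64 to 7.01%) of prior-SOX2 regions and in 338 of the 2604 DP SOX2 regions outside co-bound regions (interval 11.7 to 14.3%). Of the other strings counted around the SOX2 maximum, the OCT string ATGCAAAT lay in 3.79% of members, the ESRRB string TCAAGGTCA in 2.65%, the FOX string TGTTTAC in 8.71%, the AP-1 string TGACTCA in 6.82% and the TEAD string GGAATG in 29.2%, compared with 6.25%, 4.44%, 9.17%, 9.44% and 36.9% of prior-SOX2 regions and with 1.74%, 0.423%, 3.65%, 5.20% and 14.7% of promoters. These shares were not tested, since single regions cannot stand for replicate samples. Median GC content of the windows was 42.2% at the members and 43.7% at prior-SOX2 regions, but 52.7% at promoters, and a match of letters is a description of the sequence, not a binding site.

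**Figure D3:**
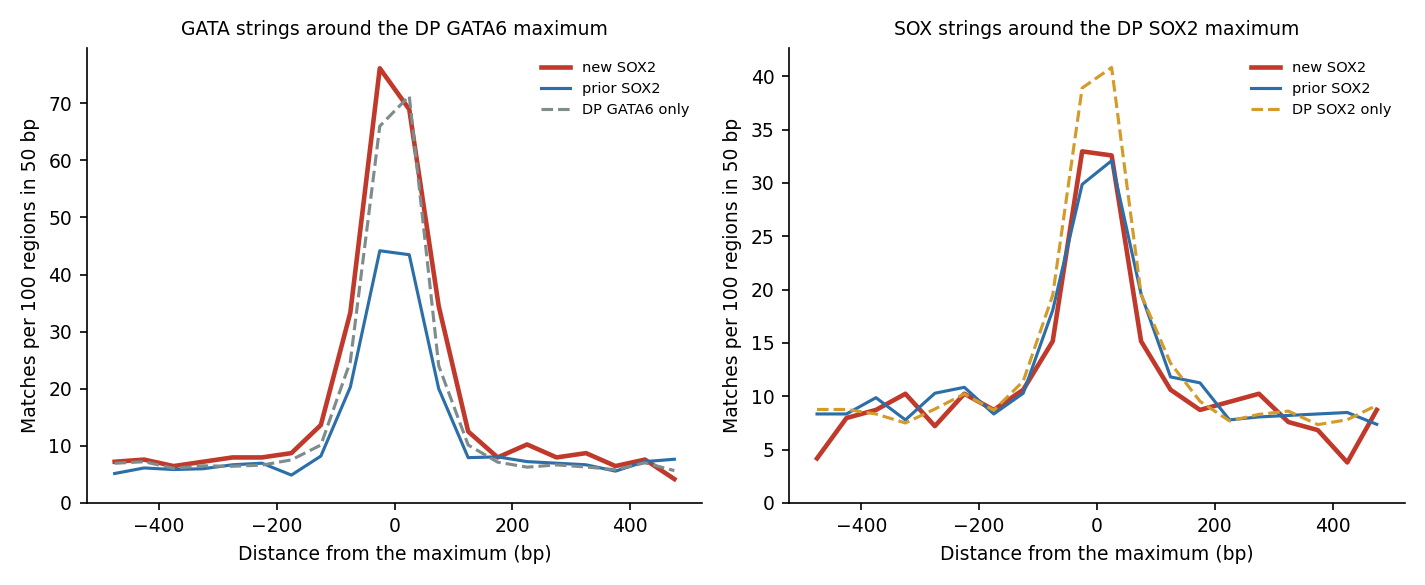
Matches of GATA strings around the DP GATA6 maximum (left) and of SOX strings around the DP SOX2 maximum (right), both strands, per 100 regions in bins of 50 bp. Red is new-SOX2, blue prior-SOX2, grey dashed DP GATA6 regions outside co-bound regions and orange dashed DP SOX2 regions outside them. At the members GATA matches reach 76.1 per 100 regions in the 50 bp before the maximum and SOX matches 33.0.

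Some members share more than short strings. In 300 bp windows at the centre of all 984 regions, 150 regions, 27 of them members, shared at least 20 of their 20-base words with another region on either strand. Links of this kind gave 19 groups, of which 6 held a member. The largest group had 66 regions, with 20 members (7.58%) and 46 prior-SOX2 regions (6.39%), and is described here. The reference marks a median of 87.5% of the bases of these 20 windows as repeat, against 15.7% for all members. No source used here says how the authors treated reads that map to several places. The 20 members lay a median of 60904 bp from a protein-coding start site. All 20 held a GATA string, 16 a SOX string, 20 had H3K4me1 and 17 H3K27ac in DP cells, 14 had GATA6 in both nEnd libraries and 3 had H3K27ac in both. Of the 46 prior-SOX2 regions of the group, 40 had GATA6 and 24 H3K27ac in both nEnd libraries, and of all 264 members 208 and 113. Of these members, 3 windows lined up on a shared word are shown because they show the common sequence, with capitals as above; they were chosen after the sequences had been compared, as the first 3 of the group in the members' order.
Kcnt2 (chr1:141246239-141246438, plus strand): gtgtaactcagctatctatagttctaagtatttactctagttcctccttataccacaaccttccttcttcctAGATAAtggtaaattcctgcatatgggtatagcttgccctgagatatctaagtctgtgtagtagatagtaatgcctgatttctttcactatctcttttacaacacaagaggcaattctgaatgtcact
Gm4788 (chr1:139796106-139796305, plus strand): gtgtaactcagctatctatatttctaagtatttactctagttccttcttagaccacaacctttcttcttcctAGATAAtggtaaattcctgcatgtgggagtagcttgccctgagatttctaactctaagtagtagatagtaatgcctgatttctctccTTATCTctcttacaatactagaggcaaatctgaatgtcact
Ifi44l (chr3:151788253-151788452, minus strand): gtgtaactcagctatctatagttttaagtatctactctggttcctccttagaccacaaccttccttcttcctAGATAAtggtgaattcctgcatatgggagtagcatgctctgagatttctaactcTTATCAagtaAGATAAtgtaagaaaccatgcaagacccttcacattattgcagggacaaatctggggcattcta
The second window has 182 and the third 134 of 200 bases equal to the first at the same position, and all 3 hold the same AGATAA. Without the 66 regions, an alternative chosen after seeing the data, 244 members remained, of which a mean of 84.6% had nEnd GATA6, and the pluripotent differences given below were -33.0 points for H3K27ac and -34.2 points for H3K4me1.

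Most members also had a GATA6 peak in nEnd. Peaks of nEnd GATA6 lay at 208 members (78.8%, interval 73.4 to 83.6%) in clone B9 and at 237 (89.8%, 85.5 to 93.2%) in clone B12, and at 493 (68.5%) and 587 (81.5%) prior-SOX2 regions. At DP GATA6 regions outside co-bound regions the shares were 62.1% and 77.3%. The members' share was above that of prior-SOX2 regions by 10.3 and 8.24 percentage points. The 74 prior-SOX2 regions with a SOX2 peak in 1 pluripotent library had shares of 82.4% (B9) and 90.5% (B12), above those of the members. The mean over the clones was 84.3% ± 7.77 (SD, n = 2) at the members and 75% ± 9.23 at prior-SOX2 regions. Within a clone the difference was 9.28 ± 1.46 percentage points (SD, n = 2), and 2 clones are too few for an exact test to pass the threshold. Both nEnd libraries had a peak at 208 members (78.8%), against 71% of all co-bound regions and 64.1% of all DP GATA6 regions, and 27 members had none. The members' nEnd GATA6 peaks had a median percentile of 88.9 in B9 and 94.5 in B12, compared with 79.3 and 87.0 both at prior-SOX2 regions and at DP GATA6 regions outside co-bound regions. In the top 10% of the library lay 48.6% (B9) and 59.9% (B12) of the members' peaks, 31.8% and 41.7% of those at prior-SOX2 regions, and 32.2% and 43.1% of those outside co-bound regions.

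Both marks were found less often at members than at prior-SOX2 regions in every pluripotent library. H3K4me1 lay at 18.2% (B9) and 36.7% (B12) of members under 2iLIF, at 18.9% under NACL in both clones, and at 28.8% (A) and 35.2% (B) in SOX2+ cells, compared with 52.9%, 73.1%, 45.3% (B9), 42.4% (B12), 74.7% and 78.3% of prior-SOX2 regions. The within-library difference was -35.0 ± 8.90 percentage points (SD, n = 6), lower in 6 of 6 libraries (exact sign-flip permutation test, two-sided, adjusted p = 0.0312, the smallest that 6 libraries can give). Without the DP SOX2 library of A it was -63.8 points, with 7 members left, and without that of A1 -63.3 points, with 8. In the same order, H3K27ac lay at 48.1% and 60.2% of members under 2iLIF, 48.5% and 71.2% under NACL, and 4.55% and 6.44% in SOX2+ cells, compared with 86.4%, 88.1%, 86.0%, 91.7%, 41.9% and 43.5% of prior-SOX2 regions. That difference was -33.1 ± 7.32 percentage points (SD, n = 6), lower in 6 of 6 libraries (exact sign-flip test, adjusted p = 0.0312), and -63.7 and -64.9 points without those DP SOX2 libraries. The classes were divided by SOX2 peaks of these same cultures, so the test of neither mark was independent of the rule. How much of each difference the rule set was not tested. The 6 libraries share clones, cultures and regions, so they are not independent replicates, and the SD holds clone, culture and technical spread. The SOX2+ H3K27ac lists held 13514 and 14722 peaks, against 210904 to 401853 under 2iLIF and NACL. With the 13514 strongest peaks of every library, H3K27ac lay at 12.5% to 16.3% of members under 2iLIF and NACL and still at 4.55% and 6.44% in SOX2+ cells, whose peaks covered 26.2 and 26.7 Mb compared with 82.6 to 92.4 Mb. Against DP GATA6 regions outside co-bound regions, the members had a lower share of H3K4me1 in 6 of 6 pluripotent libraries, with differences of -4.89 to -1.65 percentage points, and H3K27ac was lower in 4 of 6 and higher in 2.

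In DP cells nearly all members carried H3K4me1. A peak lay at 245 of 264 members (92.8%, interval 89.0 to 95.6%) and at 95.8% of prior-SOX2 regions, and H3K27ac lay at 189 members (71.6%, 65.7 to 77.0%) and at 87.4%. Each mark has 1 DP library, so these levels have no replicate check, and the DP lists are long (130749 and 76260 peaks). Among equal numbers of the strongest peaks, DP H3K4me1 lay at 54.2% of members compared with 13.6% and 14.4% in SOX2+ cells, and DP H3K27ac at 45.1% compared with 4.55% and 6.44%, while the DP peaks covered 61.5 Mb for H3K4me1 and 20.04 Mb for H3K27ac. At these equal numbers prior-SOX2 regions had 73.5% for DP H3K4me1 and 71.2% for DP H3K27ac, so the difference was -19.3 and -26.2 points, compared with -3.03 and -15.8 points for the full lists. H3K4me1 was found in DP cells but in no SOX2+ library at 146 members (55.3%), while 26.1% of all co-bound regions, the members included, and 15.4% of prior-SOX2 regions had this pattern. H3K27ac was found in DP cells but in no SOX2+ library at 170 members (64.4%), against 46.1% of all co-bound regions and 39.4% of prior-SOX2 regions. DP GATA6 regions outside co-bound regions also had more of both marks in DP than in SOX2+ cells, with H3K4me1 at 83.4% compared with 33.1% and 39.3%, and H3K27ac at 50.1% compared with 10.5% and 11.1%. No pluripotent library had H3K4me1 at 135 members (51.1%), against 23.8% of all co-bound regions. For H3K27ac this held at only 36 members (13.6%) and at 25 prior-SOX2 regions (3.47%). Most members thus had H3K27ac in at least 1 pluripotent library. At 57 members (21.6%) and 78 prior-SOX2 regions (10.8%) DP cells had H3K4me1 without H3K27ac, and 188 members (71.2%) and 612 prior-SOX2 regions (85%) had both.

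In nEnd the members and the prior-SOX2 regions had close shares of H3K4me1. The shares were 68.6% and 64.8% of members in the 2 libraries of clone B9, labelled S8 and S20, and 68.9% and 61.7% of prior-SOX2 regions, a difference of 1.39 ± 2.43 percentage points (SD, n = 2), negative in S8 and positive in S20. At equal peak numbers it was -4.28 points in S8 and 3.11 points in S20. H3K27ac lay at 43.9% (B9) and 55.7% (B12) of members and at 52.6% and 62.9% of prior-SOX2 regions, a difference of -7.97 ± 1.04 points. The differences in nEnd exceeded those in the pluripotent libraries by 36.4 points for H3K4me1 and 25.1 points for H3K27ac. Both nEnd values lay above all 6 pluripotent values for each mark, but 2 against 6 libraries cannot reach p = 0.05 (exact permutation test, two-sided, adjusted p = 0.0714, the smallest it allows). Both nEnd libraries had H3K4me1 at 156 members (59.1%), against 57.4% of all co-bound regions, and H3K27ac at 113 (42.8%), against 48.8%. H3K4me1 was in no SOX2+ library but in DP cells and both nEnd libraries at 86 members (32.6%) and at 49 prior-SOX2 regions (6.81%). DP GATA6 regions outside co-bound regions had less of both marks in nEnd, 58.0% (S8) and 46.3% (S20) for H3K4me1 and 37.6% and 43.1% for H3K27ac.

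**Figure D4:**
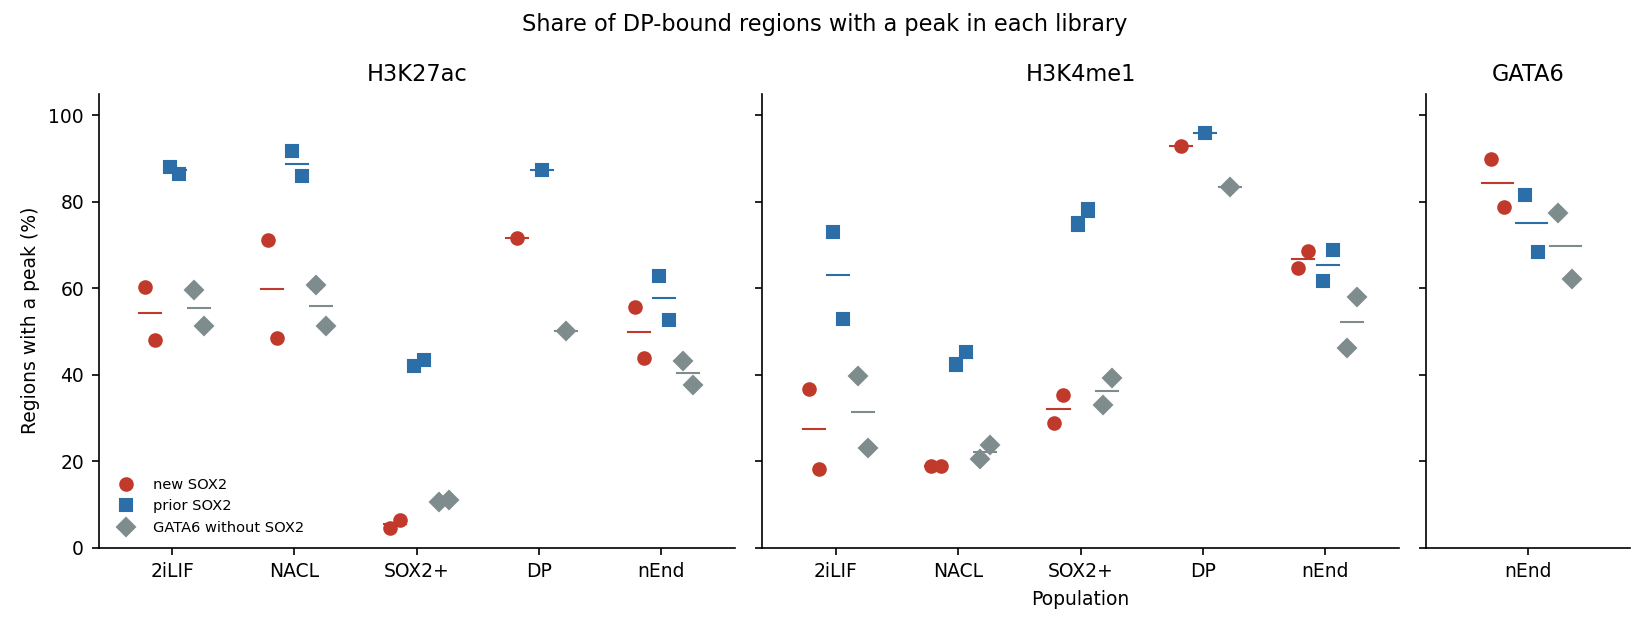
Percent of regions with a peak of H3K27ac, H3K4me1 or GATA6 in each library, by population; each point is a library and each short line a mean. Red circles are the 264 new-SOX2 regions, blue squares the 720 prior-SOX2 regions and grey diamonds the 2497 DP GATA6 regions outside co-bound regions. Red lies below blue for both marks in every 2iLIF, NACL and SOX2+ library, is close to it for H3K4me1 in nEnd, and lies above it for nEnd GATA6.

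Members with and without GATA6 in nEnd differed in their nEnd marks. Of the 208 members with GATA6 in both nEnd libraries, 76.9% and 74.0% had H3K4me1 and 54.3% and 66.8% H3K27ac in the nEnd libraries. Of the 27 members without nEnd GATA6, 22.2% and 7.41% had H3K4me1 and 0 and 1 member had H3K27ac, where 0 of 27 allows a share of up to 11.1% when 3 counts are taken as the limit. In DP cells H3K4me1 was at 92.3% of the first and 92.6% of the second group, and H3K27ac at 75.5% and 48.1%. The second group lay farther from genes, with a median of 98012 bp to a protein-coding start site against 25636 bp. These 27 were grouped by a measured value and the difference was not tested.

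Most members were distal. Of the 264, 242 (91.7%, interval 87.7 to 94.7%) lay at least 1 kb from any GENCODE M21 transcript start, compared with 626 of 720 (86.9%, 84.3 to 89.3%) prior-SOX2 regions. The other 22 members lay within 1 kb of a start, 96 had their centre in an intron of a protein-coding gene, 2 in a UTR, 144 between genes and 0 of 264 in a coding exon, which allows a share of up to 1.14% when 3 counts are taken as the limit and 1.39% by Clopper-Pearson. The median distance to a protein-coding start was 28390 bp for members and 23526.5 bp for prior-SOX2 regions, and 58 members were over 100 kb away. Chromosome X held 13 members and 8 prior-SOX2 regions, while chromosome 1, with the most members, held 21 and 80. The nearest protein-coding starts belonged to 245 genes, of which 44 were also nearest to a prior-SOX2 region. At 17 genes there were at least 2 members, with 3 each at Diaph2 and Zcchc13 on chromosome X and 2 each at Pdgfra, Cubn, Itga6, Foxo3, Hmcn1, Qk and others. Nearness does not show which gene a region acts on.

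Genes of the endoderm lay near 11 members. Of 163 genes in 10 lists of endoderm, pluripotency and signalling genes, 14 were nearest to 16 members (6.06% of members, compared with 4.72% of prior-SOX2 regions). The 4 endoderm lists (PrE transcription factors, basement membrane, endocytosis, receptors and secreted factors) gave 9 genes with 11 of the 264 members. At prior-SOX2 regions they gave 7 genes with 10 of the 720. All 11 members had GATA6 in both nEnd libraries, H3K4me1 in both nEnd libraries and H3K4me1 in DP cells, 10 had H3K27ac in both nEnd libraries, and none had H3K27ac in a SOX2+ library. All 11 had H3K27ac in some other pluripotent library, while 36 of all 264 members had it in no pluripotent library. Of all 264 members, 208 had GATA6, 156 H3K4me1 and 113 H3K27ac in both nEnd libraries, 245 had H3K4me1 in DP cells, and 19 had H3K27ac in a SOX2+ library, so that 0 of 11 is near the share of all members. Among the 10 prior-SOX2 regions of the same lists, 7 had GATA6 and 9 had H3K4me1 in both nEnd libraries, and 4 had H3K27ac in a SOX2+ library.

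Among receptors, Pdgfra, the PDGF receptor that marks PrE, had 2 members, 5769 bp (chr5:75146013-75146990) and 33932 bp (chr5:75117910-75118710) upstream of its start. The nearer one was the member 15th in the order, with SOX2 percentiles of 85.6 and 92.1 in A and A1 and GATA6 percentiles of 97.5, 98.5 and 71.5. It had no H3K4me1 in any pluripotent library and H3K27ac in 1, NACL B12, and carried both marks in the DP and all nEnd libraries. The farther one had H3K4me1 in 3 pluripotent libraries, both SOX2+ libraries among them, and in DP and both nEnd libraries, and H3K27ac in NACL B12, DP and nEnd B12 but not nEnd B9. Fgfr2, a receptor of FGF, had a member 112718 bp downstream of its start (chr7:130148912-130149553) with the same marks as the nearer Pdgfra member and nEnd GATA6 percentiles of 99.6 (B9) and 99.9 (B12). Lifr, the receptor of LIF, had one 54565 bp upstream (chr15:7035720-7036270), whose SOX2 peaks were among the weakest, at percentiles of 0.422 (A) and 7.83 (A1). It was the 1 of the 11 without H3K27ac in DP cells. Dkk1, a secreted WNT antagonist, had one 32973 bp downstream of its start (chr19:30516464-30516908) with H3K27ac in 3 pluripotent libraries and in DP and both nEnd libraries.

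Cubn, the endocytic receptor cubilin of the visceral endoderm, had 2 members on both sides of its start, 2161 bp downstream in an intron (chr2:13489360-13489929) and 4436 bp upstream (chr2:13496077-13496525). Both carried both marks in DP and nEnd cells, and H3K4me1 lay at 0 and 1 of 6 pluripotent libraries. Of matrix genes, Sparc, a matrix glycoprotein, had a member 5770 bp upstream (chr11:55428758-55429172) with H3K4me1 in the 4 NACL and SOX2+ libraries and H3K27ac in 1 of 6 pluripotent libraries, NACL B12. Lamc1, a laminin chain, had one 36494 bp upstream and Plod2, a collagen lysyl hydroxylase, one 9692 bp into the gene, both with H3K27ac in all 4 libraries of 2iLIF and NACL and in none of SOX2+ cells. Gata6 itself had a member 47757 bp upstream of its start on chromosome 18. Its GATA6 peaks in DP cells had percentiles of 77.9 (A), 16.2 (A1) and 3.45 (B), and it held H3K27ac in all 2iLIF and NACL libraries, H3K4me1 in both SOX2+ libraries, and GATA6 in both nEnd libraries.

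The other 6 lists gave 5 of the 264 members and 24 of the 720 prior-SOX2 regions. Pluripotency genes were nearest to 3 of the 5 and to 15 of the 24. Among pluripotency genes, Esrrb, a nuclear receptor of the naive network, had a member 10727 bp into the gene (chr12:86480549-86481180) with H3K27ac in all 6 pluripotent libraries and none in nEnd, where both libraries had GATA6 and H3K4me1 there. The region near Dppa4 (4607 bp upstream, chr16:48278833-48279435) had H3K27ac in 3 pluripotent libraries and DP cells, none in nEnd, and GATA6 in nEnd of clone B12 only. The region 32519 bp downstream of the start of Klf5, a Kruppel-like factor, had H3K27ac in 4 and H3K4me1 in 5 of 6 pluripotent libraries, and both marks in DP and nEnd cells. Of FGF and ERK feedback genes, Spred2 had an intronic member with H3K27ac in DP cells and no mark in nEnd, and Phlda1 one with both marks in DP and nEnd. No formative, WNT, Nodal, BMP or Hippo, trophoblast or neural gene of the lists was nearest to a member. These 4 lists were also rare at prior-SOX2 regions (0.139%, 0.278%, 0.139% and 0% of them), so the absence is near that share.

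The members first in the order were mostly near genes outside these lists. Of the first 15, 14 had GATA6 in both nEnd libraries, 10 had no H3K4me1 in any pluripotent library, and none had H3K27ac in a SOX2+ library, compared with 208, 135 and 19 of all 264. The first, 22021 bp upstream of Aco1 (iron-regulated aconitase, chr4:40120607-40121689), had SOX2 percentiles of 97.2, 99.1 and 44.1 and GATA6 percentiles of 99.8, 99.9 and 98.3 in A, A1 and B. It carried both marks in DP cells, neither in nEnd, and GATA6 in nEnd at percentiles of 83.2 and 89.1. The regions near Gm10160, in an intron of Efna5 (an ephrin ligand) and near Col6a4 (a collagen VI chain) likewise had H3K4me1 in DP cells and neither mark in nEnd, and that near Col6a4 was the 1 of the 15 without nEnd GATA6. Those in introns of Galnt17, Exosc7, Scube2, Fhod1 and Cdk15 carried both marks in DP cells and in all nEnd libraries, as did one in Kat6a within 1 kb of a transcript start. The intronic region of Adora1, an adenosine receptor, had H3K4me1 but no H3K27ac in DP cells and both marks in nEnd, and those near Coro2b and in Zfhx3 (a homeobox factor) had both in DP cells. In nEnd the first had H3K27ac in both libraries and H3K4me1 in S20, and the second H3K4me1 in both and no H3K27ac. The region near the olfactory receptor gene Olfr223 had neither mark in DP cells and H3K4me1 in both nEnd libraries.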

How the data were processed

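CUT&RUN peak lists of 35 libraries were used, and the 18 IgG samples of the series were not analysed here. Per the labels, the submitters' processing notes name the build mm10 (GRCm38) and cutadapt (1.18), Bowtie2 (2.3.4.1), SAMtools (1.9), Picard (2.9.1), bedtools (2.27.1), deepTools (3.2.0) and SEACR. The authors' methods give peaks called against IgG. Deposited lists are named relaxed for histone marks and stringent for factors, while the methods state the opposite. The signal that the authors deposited with each peak has a scale of its own in every library, and was used to rank peaks within a library. Read depth is unknown.

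Intervals were merged and compared in Python 3.11 with numpy and pandas (1 bp minimum overlap), on chromosomes 1 to 19, X and Y; no peak lay beyond a chromosome's end in GRCm38. Genes came from GENCODE M21 and promoters from RefSeq. Shares of new-SOX2 minus prior-SOX2 regions with a peak were taken within a library and tested with an exact sign-flip test over 6 pluripotent libraries and an exact permutation test of 2 nEnd against 6, both two-sided, adjusted by Benjamini-Hochberg over the 2 marks, with a threshold of 0.05. The interval and test functions were tested on simulated data. Clone as a replicate block was tried for H3K27ac; B9 minus B12 at the 984 regions correlated by 0.032, -0.0516 and 0.00914 between 2iLIF and NACL, 2iLIF and nEnd, and NACL and nEnd. Motifs were exact strings on both strands in 300 bp windows. Members were ordered by the number of 6 DP libraries with a peak, then by mean percentile, and named by the nearest protein-coding start: the first 15 and all at genes of the lists. The members, lists and tests were chosen with earlier results of these data known.

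For 1 H3K27ac and 1 H3K4me1 library of experiment B, the title names DP and the source name SOX2+, and these 2 entered no comparison. The DP GATA6 library of A has sub02 in its title, which no source explains. For the NACL B12 SOX2 library the source name mentions IgG, and its title and antibody were followed.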

Additional observations from a re-analysis of the deposited data

Results flagged for a closer look

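Of the KOSR histone libraries of experiment B, 1 of H3K27ac and 1 of H3K4me1 carry a title naming DP and a source name naming SOX2+. These 2 were left out of every comparison, while the SOX2+ libraries of B, whose labels do not conflict, were used. Their peaks lay at more new-SOX2 regions than those of the SOX2+ libraries of the same mark. H3K27ac lay at 66 of 264 members (25%) in the library with conflicting labels, compared with 4.55% and 6.44% in the SOX2+ libraries. H3K4me1 lay at 195 members (73.9%), compared with 28.8% and 35.2%. With equal numbers of the strongest peaks the shares were 22.7% for H3K27ac and 34.5% for H3K4me1. No population was assigned to these libraries from these values.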

How the results depend on the processing

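The number of members was 713 with a peak in any DP library, 6 with peaks in all 3, 431 against the stronger 50% of pluripotent SOX2 peaks, and 461, 465 and 7 from experiment A, A1 or B alone. Without 1 library in turn it ranged from 7 to 287 (7 and 8 without the DP SOX2 libraries of A and A1). The mean nEnd GATA6 share was 72.8% with any DP library, 72.2% from A and 71.4% from B alone, and 75% to 91.2% without 1 library. Members at least 1 kb from a start were 100% with all 3 libraries and 85.7% from B alone, and 72.0% lay at least 5 kb away; without 1 library 87.5% to 100%. The GATA string was held by 94.2% (any library), 100% (all 3), 95.4% (A) and 85.7% (B), and by 87.5% to 100% without 1 library; the SOX string by 82.6% of whole regions and 50% to 73.1% without 1 library. The pluripotent differences of -33.1 and -35.0 points ranged from -64.9 to -31.6 (H3K27ac) and from -63.8 to -32.8 (H3K4me1) without 1 library, the lowest with 7 or 8 members left. Without 1 histone library they were -35.6 to -32.0 and -37.3 to -32.8, with adjusted p = 0.0625, the smallest that 5 libraries allow in the exact test. Clone as a replicate block gave an H3K27ac difference between nEnd and pluripotent libraries of 26.3 points in place of 25.1 (exact permutation p = 0.133, the smallest its 15 arrangements allow). Over single regions the clones' deviations correlated between cultures by -0.0516 to 0.032, while the H3K27ac difference was less negative in B12 than in B9 in 2iLIF, NACL and nEnd. The nEnd tests cannot pass the threshold under any setting run, so their p-values say nothing of stability. Leaving out the 66 regions of the largest group that shares sequence, and using A and A1 alone, were chosen after seeing the data. Unknown read depth limits what a missing peak means.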
